A study of Mus musculus with 12 samples.

Results

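The 6 genes described here encode the mouse receptors for IgG and the proteins they work with: Fcgr1, Fcgr4 and Fcgr3, the activating Fc gamma receptors; Fcgr2b, the inhibitory one; Fcer1g, the signalling chain of the activating receptors; and Fcgrt, the heavy chain of the neonatal Fc receptor FcRn. They were chosen by symbol, and all 6 were found among the 32416 genes of the expression table. Strictly, 4 of them are Fc gamma receptors, while Fcer1g is a shared chain and FcRn is a transport receptor related to MHC class I. Levels were measured by polyA RNA-seq in 12 bulk tumours of B16, a mouse melanoma line, grown under the skin of C57BL/6 mice. The groups were 4 B16mhgp100 tumours over-expressing Aoah and 4 B16mhgp100 tumours with the empty vector (called Vector), then 2 B16F10 tumours over-expressing Aoah and 2 B16F10 tumours with the Vector. Aoah encodes acyloxyacyl hydrolase, a lipase known for inactivating bacterial lipopolysaccharide. Mice with B16mhgp100 tumours received anti-PD1 from day 10, and mice with B16F10 tumours received anti-PD1 and anti-CTLA4 from day 6, at 200 µg per dose, 2 doses a week and 4 doses in all, with tumours taken 1 day after the last dose. Every animal therefore carried therapeutic antibody, there was no untreated arm, and the model, the antibodies and the first day of dosing cannot be told apart. Nothing in the labels ties each tumour to a mouse of its own, and the p-values below reflect variation among these libraries, which may be technical. The labels give neither the promoter that drives Aoah nor the number of clones.

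Fc gamma receptors are found mainly on macrophages, monocytes, dendritic cells, neutrophils and NK cells, and bind the constant part of IgG once it coats a target. Fcgr1 encodes the high-affinity receptor, and Fcgr3 and Fcgr4 encode activating receptors of lower affinity that, like it, pair with the gamma chain, whose ITAM motif recruits the kinase Syk. Fcgr2b carries an inhibitory ITIM motif and holds that signal back, so the balance of activating to inhibitory receptors is known to set how myeloid cells respond to an antibody. FcRn binds IgG in acidic endosomes and returns it to the blood.

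Fcgr2b, Fcgr3, Fcgr4 and Fcer1g lie on mouse chromosome 1, Fcgr1 on chromosome 3 and Fcgrt on chromosome 7. Fcgr1 and Fcgr4 are the receptors whose transcripts differed most between Aoah and Vector tumours of B16F10, and Fcgr2b is the inhibitory receptor they are set against below, so the promoters of these genes are shown. They come from RefSeq on the build GRCm38.p6, which is not the build of the expression values, and each runs 5′ to 3′ on the gene's strand over 300 bases, of which the last 50 follow the annotated start. The letters searched, on both strands, were TTCNNNGAA, the form of a gamma-activated site, and GAGGAAGT, a form of the site of the myeloid factor PU.1. Capitals mark matches.
Fcgr1, chr3:96293920-96294219, minus strand: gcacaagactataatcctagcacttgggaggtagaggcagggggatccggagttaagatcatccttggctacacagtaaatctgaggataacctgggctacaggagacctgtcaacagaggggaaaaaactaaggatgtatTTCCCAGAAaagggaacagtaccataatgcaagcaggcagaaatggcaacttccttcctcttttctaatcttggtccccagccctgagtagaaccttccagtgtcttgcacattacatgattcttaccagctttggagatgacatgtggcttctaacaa
Fcgr4, chr1:171018676-171018975, plus strand: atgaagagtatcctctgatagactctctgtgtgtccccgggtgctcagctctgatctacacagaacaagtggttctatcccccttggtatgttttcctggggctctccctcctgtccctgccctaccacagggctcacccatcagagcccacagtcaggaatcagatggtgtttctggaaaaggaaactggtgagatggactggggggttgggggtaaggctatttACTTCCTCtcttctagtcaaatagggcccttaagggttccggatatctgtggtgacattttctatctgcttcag
Fcgr2b, chr1:170976022-170976321, minus strand: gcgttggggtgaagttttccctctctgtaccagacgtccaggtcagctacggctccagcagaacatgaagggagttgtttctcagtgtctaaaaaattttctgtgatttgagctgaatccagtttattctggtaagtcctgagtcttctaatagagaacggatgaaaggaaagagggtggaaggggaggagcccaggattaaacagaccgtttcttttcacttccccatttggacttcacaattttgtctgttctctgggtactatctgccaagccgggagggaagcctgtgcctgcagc
The Fcgr1 promoter held TTCCCAGAA, a match to TTCNNNGAA, beginning at position -109 from the start. The Fcgr4 promoter held ACTTCCTC, which is GAGGAAGT on the other strand, beginning at position -24. Neither motif was found in these windows of Fcgr2b, Fcgr3, Fcer1g or Fcgrt. Of 32851 mouse promoters in the same table, 8.30% held TTCNNNGAA and 3.20% held GAGGAAGT. A match describes these letters and is not evidence of binding.

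Before the receptors, the libraries were compared. Aoah itself was at 17.9, 22.5, 13.96 and 3.91 TPM (a level per transcript length, relative to the library) in B16mhgp100 Aoah tumours, against 7.58, 0.89, 2.43 and 1.57 TPM in B16mhgp100 Vector tumours, and Aoah library 4 lay inside the Vector range. It was at 21.8 and 23.7 TPM in B16F10 Aoah tumours, against 1.49 and 0.75 TPM in B16F10 Vector tumours. That B16mhgp100 Aoah library 4 stood apart from all others: its median correlation with the other libraries was 0.791, against 0.909 to 0.952 for the rest, and its summed keratinocyte markers reached 4579 TPM. In it, transcripts under 1 kb lay 0.31 above their mean over the other libraries on the log2 scale at the median. Those over 3 kb lay 0.97 below. The second B16F10 Vector library had 10.4% of its TPM in mitochondrial transcripts, against at most 6.38% elsewhere. The deposited values keep no read depth.

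All 6 genes were expressed in all 12 tumours, and they spanned a wide range (the plot of TPM by tumour). Medians over the 12 libraries ran from 13.23 TPM for Fcgr1 through 23.3 TPM for Fcgr4, 31.6 TPM for Fcgr3, 39.8 TPM for Fcgr2b and 41.5 TPM for Fcgrt to 61.5 TPM for Fcer1g. Since TPM is a level per transcript length, these can be set beside each other: the inhibitory receptor was the most abundant of the 4 receptors at the median and the high-affinity receptor the least. The highest library exceeded the lowest by 9.99-fold for Fcgr1 and by 20.9-fold for Fcgr4. Fcgr3 and Fcgr2b share 94 identical 75-base stretches, 7.38% of those in the longest Fcgr3 transcript and 2.71% of those in the longest Fcgr2b transcript, so reads from there may have been split between them. No other pair of the 6 shared such a stretch.

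**Figure D1:**
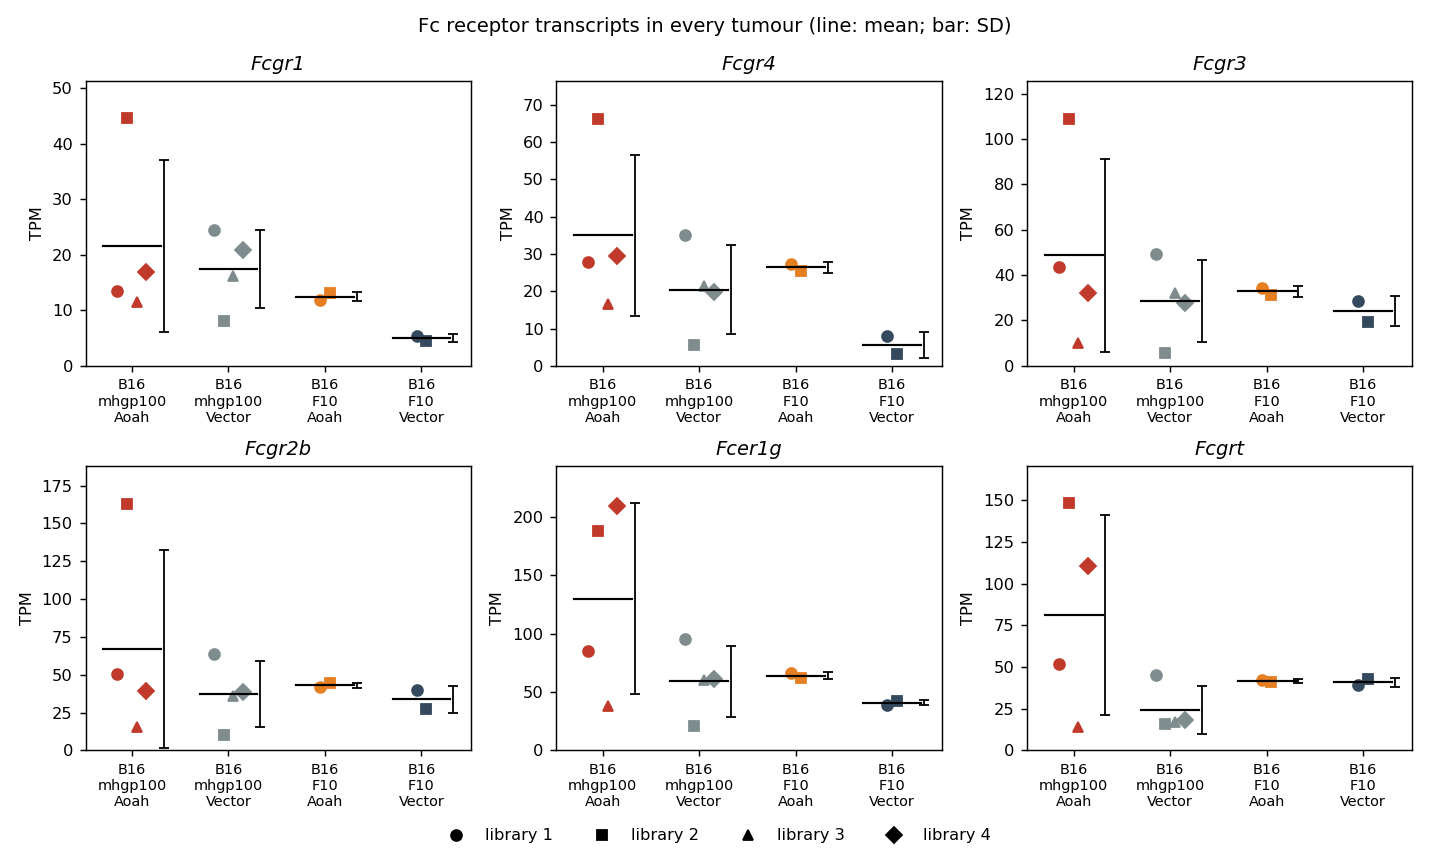
TPM (y axis) of each Fc receptor gene in every library, by model and Aoah or Vector group (x axis); lines are group means, bars are SD, and marker shapes number the libraries within a group and do not pair them. In B16F10 the Aoah libraries lie above the Vector libraries for every gene but Fcgrt, whereas in B16mhgp100 the groups overlap for all 6.

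In B16F10, the activating receptors Fcgr4 and Fcgr1 were 4.44-fold and 2.27-fold higher in Aoah than in Vector tumours, and passed the test of the authors' deposited table but not that of limma. The inhibitory receptor Fcgr2b, the activating receptor Fcgr3, the gamma chain and FcRn passed neither. Fcgr4, whose product binds mouse IgG2a and IgG2b, was at 27.4 and 25.4 TPM in Aoah tumours, against 8.09 and 3.17 TPM in Vector tumours. Its means were 26.4 ± 1.39 and 5.63 ± 3.48 TPM (SD, n = 2 each), so the Aoah libraries lay close together and well above both Vector libraries. Fcgr1 was at 11.9 and 13.01 TPM in Aoah tumours, against 5.44 and 4.46 TPM in Vector tumours, again with no overlap. The difference of Fcgr4 was 2.15 on the log2(TPM + 1) scale (SE 0.41, 95% interval 1.13 to 3.18) and that of Fcgr1 was 1.18 (SE 0.25, 95% interval 0.55 to 1.82). The folds above are on this scale, where the pseudocount makes changes of weakly expressed genes look smaller. Neither passed limma's test after Benjamini-Hochberg adjustment over 14533 genes, with adjusted p of 0.104 for Fcgr4 and 0.119 for Fcgr1, and 0.344% of all genes did. In the authors' deposited table, made with DESeq2 per the submitters' processing notes, both passed the same threshold of 0.05: Fcgr4 rose by 2.25 (SE 0.44, adjusted p = 2.02e-05) and Fcgr1 by 1.32 (SE 0.34, adjusted p = 0.00251) on the log2 scale. Without Vector library 1 the limma difference was 2.71 for Fcgr4 and 1.30 for Fcgr1, and without Vector library 2 it was 1.59 and 1.06. Each of these fits holds 1 Vector library, whose spread cannot be estimated, so no calls are given. The authors' deposited table called 8.53% of 14328 genes there, and 4.65% as higher in Aoah.

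Fcer1g, the gamma chain, was at 66.2 and 62.0 TPM in B16F10 Aoah tumours, against 39.1 and 42.5 TPM in Vector tumours. The groups did not overlap, the difference was 0.64 on the log2(TPM + 1) scale (SE 0.17, limma adjusted p = 0.155), and it was 0.63 in the authors' deposited table (adjusted p = 0.252). The low-affinity activating receptor Fcgr3 was at 34.4 and 31.2 TPM in Aoah tumours, against 28.7 and 19.3 TPM in Vector tumours. Fcgr2b, the inhibitory receptor, was at 41.9 and 44.2 TPM in Aoah tumours, against 40.2 and 27.4 TPM in Vector tumours. For both genes the first Vector library came close to the Aoah libraries and the second was lower. Their differences were 0.46 for Fcgr3 (SE 0.25, 95% interval -0.18 to 1.09, limma adjusted p = 0.403) and 0.37 for Fcgr2b (SE 0.24, -0.24 to 0.97, limma adjusted p = 0.473), so the intervals included 0. FcRn's heavy chain, Fcgrt, was at 42.2 and 40.9 TPM in Aoah tumours, against 39.0 and 42.5 TPM in Vector tumours. The groups overlapped and the difference was 0.03 (SE 0.18, 95% interval -0.41 to 0.47, limma adjusted p = 0.952).

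Of the 6 genes, 5 had B16F10 groups that did not overlap, all higher in Aoah, but with 2 libraries a group 28% of all genes were so. At an unadjusted limma p under 0.05 there were 3 of 6, Fcgr4, Fcgr1 and Fcer1g, against 18.2% of all genes. Without Vector library 1 the limma differences of Fcer1g, Fcgr3 and Fcgr2b were 0.58, 0.73 and 0.64. Without Vector library 2 they were 0.70, 0.18 and 0.098. The median difference of the 6 was 0.55, against 0.02 over all genes. In bulk tissue, more cells that carry a receptor and more of its RNA in each cell cannot be told apart.

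In B16mhgp100 no Fc receptor gene passed a test, and the groups of all 6 overlapped, where 5.88% of all genes had groups that did not. The spread inside each group was wide. The second Aoah library was the highest of the model for 5 of the genes and the third the lowest of its group for all 6, while the second Vector library was the lowest Vector library for all 6. Fcgr4 was at 27.8, 66.2, 16.5 and 29.5 TPM in Aoah tumours, against 35.0, 5.58, 21.3 and 19.8 TPM in Vector tumours. Fcgr1 was at 13.4, 44.6, 11.48 and 16.9 TPM in Aoah tumours, against 24.4, 8.14, 16.1 and 20.8 TPM in Vector tumours. With the second Aoah library set aside, every Fcgr1 value of the Aoah group lay inside the Vector range, and the Fcgr1 difference was -0.22; it was -0.11 without the second Vector library. Fcgr3 was at 43.5, 109.0, 9.87 and 32.2 TPM in Aoah tumours, against 49.2, 5.54, 32.0 and 27.8 TPM in Vector tumours. Fcgr2b was at 50.2, 163.0, 15.4 and 39.4 TPM in Aoah tumours, against 63.4, 10.4, 36.2 and 38.7 TPM in Vector tumours. Fcgr2b and Fcgr3 had the same order of libraries in the Aoah group, while Vector libraries 3 and 4 changed places.

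Fcer1g was at 84.8, 188.2, 37.7 and 209.3 TPM in B16mhgp100 Aoah tumours, against 95.2, 20.5, 59.9 and 60.9 TPM in Vector tumours. Fcgrt was at 51.9, 148.3, 13.8 and 110.6 TPM in Aoah tumours, against 45.4, 15.8, 17.1 and 18.2 TPM in Vector tumours, so 3 Aoah libraries exceeded every Vector library and the third fell below all of them. These were the largest differences of the 6, at 1.40 for Fcgrt (SE 0.69) and 1.02 for Fcer1g (SE 0.62), with a limma adjusted p of 0.694 for each. Both were high in the library that stood apart. There Fcer1g lay 1.81 and Fcgrt 1.67 above their means over the other libraries on the log2 scale. Their longest transcripts are 683 and 1770 bases. In the same library, measured in the same way, the short C1qa transcript lay at 2.01 and the long Csf1r and Adgre1 transcripts at -0.51 and -0.92. Fcgr4 and Fcgr3, with 1256 and 1347 bases and so shorter than Fcgrt, lay at 0.70 and 0.20. Fcgr1 and Fcgr2b, with 2589 and 3544 bases, lay at 0.34 and 0.04. The part of transcript length was not tested. The part of this library in the Fcgrt and Fcer1g differences was not tested beyond leaving it out, which gave 1.10 for Fcgrt and 0.70 for Fcer1g.

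The other differences in B16mhgp100 were 0.81 for Fcgr4 (SE 0.56), 0.63 for Fcgr3 (SE 0.79), 0.59 for Fcgr2b (SE 0.73) and 0.19 for Fcgr1 (SE 0.46). Single libraries carried much of them. On leaving out 1 library, Fcgr3 ranged from 0.0083 (without Vector library 2) to 1.21, Fcgr2b from 0.0020 (without Aoah library 2) to 1.11 and Fcgr4 from 0.32 (without Vector library 2) to 1.14. limma called none of 14228 genes in this model (0% at an adjusted p under 0.05), with 350 at an unadjusted p under 0.05, and the authors' deposited table called 3 of 20534 (0.0146%). In the authors' deposited table the differences were 2.09 for Fcgrt, 1.52 for Fcer1g, 1.02 for Fcgr2b, 1.01 for Fcgr4, 0.95 for Fcgr3 and 0.53 for Fcgr1, with adjusted p between 0.452 and 0.822. The median difference over all genes was -0.20 in this model as deposited and 0.01 once libraries were scaled by median-of-ratios factors, which moved the 6 genes to between 0.42 for Fcgr1 and 1.64 for Fcgrt. None passed on that scale.

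**Figure D2:**
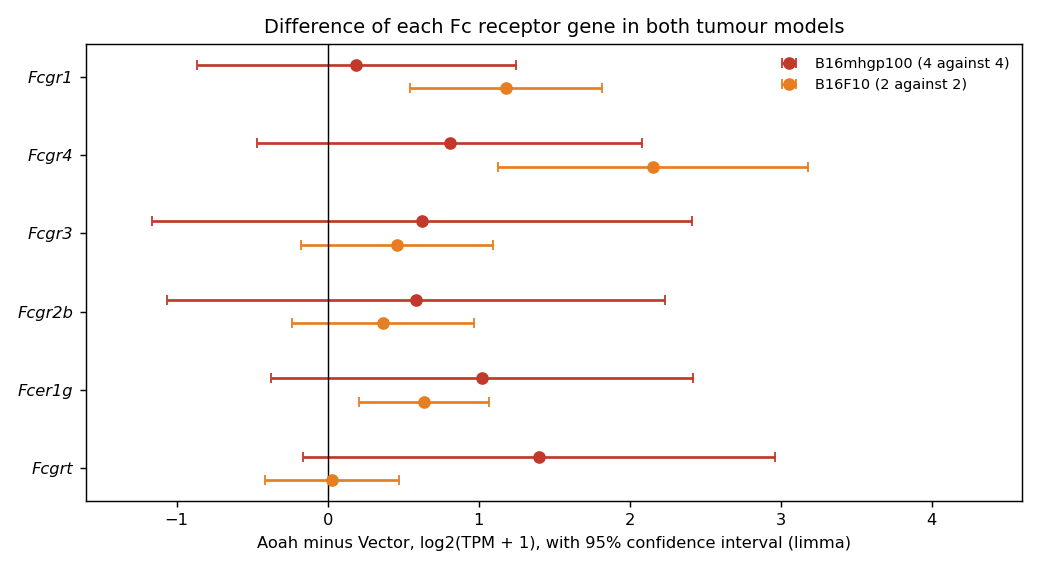
Difference Aoah minus Vector in log2(TPM + 1) (x axis) for each gene (y axis), with the 95% confidence interval from limma, in B16mhgp100 (4 against 4 libraries) and B16F10 (2 against 2). The B16F10 intervals of Fcgr4, Fcgr1 and Fcer1g lie above 0 before adjustment for multiple tests, and every B16mhgp100 interval includes 0.

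The Aoah difference was also compared across models, as an interaction of B16mhgp100 minus B16F10. No Fc receptor gene passed, and 0.0302% of 16556 genes did. The interaction was -1.34 for Fcgr4 (95% interval -3.37 to 0.68), -0.99 for Fcgr1 (-2.59 to 0.60) and 1.37 for Fcgrt (-0.99 to 3.73), with an adjusted p of 0.849 for each. For Fcgr3, Fcgr2b and Fcer1g it was 0.17, 0.22 and 0.38, with adjusted p from 0.919 to 0.978. All of these intervals included 0.

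Between models, Fcgr1 and Fcgr4 differed by the most in Vector tumours. The B16mhgp100 Vector tumours averaged 17.4 ± 7.04 TPM of Fcgr1 (SD, n = 4), against 4.95 ± 0.693 TPM in B16F10 Vector tumours (SD, n = 2), and each B16mhgp100 Vector library exceeded each B16F10 one. Fcgr4 averaged 20.4 ± 12.02 TPM in B16mhgp100 Vector tumours, against 5.63 ± 3.48 TPM in B16F10 Vector tumours, with overlap. The differences were 1.53 for Fcgr1 (SE 0.51, limma adjusted p = 0.221) and 1.56 for Fcgr4 (SE 0.65, limma adjusted p = 0.367), neither passing, where 1.88% of 16556 genes did. At an unadjusted limma p under 0.05 there were these 2 of 6, against 12% of all genes. The other 4 lay between -0.87 for Fcgrt and 0.34 for Fcer1g. In Aoah tumours the models differed by 0.54 for Fcgr1, 0.22 for Fcgr4, 0.11 for Fcgr3, 0.14 for Fcgr2b, 0.72 for Fcer1g and 0.50 for Fcgrt, none passing, where 3.7% of genes did. For each of the 6, both B16F10 Aoah libraries lay within the range of the 4 B16mhgp100 Vector libraries. By group mean, B16mhgp100 Aoah was the highest group for all 6 genes and B16F10 Vector the lowest for all but Fcgrt, whose lowest mean was in B16mhgp100 Vector. By median, Fcgr1 was lower in B16mhgp100 Aoah than in B16mhgp100 Vector tumours, at 15.2 against 18.5 TPM. No neighbours in the orders by mean passed limma's adjusted threshold. Before adjustment, the 95% interval excluded 0 between neighbouring groups for Fcgr1 (B16F10 Aoah against Vector, 0.55 to 1.82) and for Fcgr4 (B16mhgp100 Vector against B16F10 Vector, 0.13 to 3.00). B16mhgp100 Vector against B16F10 Aoah was not tested.

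The balance of activating to inhibitory receptor transcripts was taken within each library as the summed TPM of Fcgr1, Fcgr3 and Fcgr4 over that of Fcgr2b. In B16F10 it was 1.76 and 1.57 in Aoah tumours, against 1.05 and 0.986 in Vector tumours. In B16mhgp100 it was 1.69, 1.35, 2.47 and 2.00 in Aoah tumours, against 1.71, 1.85, 1.92 and 1.77 in Vector tumours. The B16F10 Vector tumours were thus the only ones in which activating and inhibitory transcripts were near parity, and the 4 B16mhgp100 Vector values lay within a narrow band although their receptor levels varied widely. The ratio is a score over these genes and carries no p.

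For each receptor, Fcgr4 over Fcgr2b was 0.614 ± 0.0551 in B16F10 Aoah tumours, against 0.159 ± 0.0605 in B16F10 Vector tumours (SD, n = 2 each). Fcgr1 over Fcgr2b was 0.289 ± 0.00716 in B16F10 Aoah tumours, against 0.149 ± 0.0195 in Vector tumours. Fcgr3 over Fcgr2b was 0.763 ± 0.0822 in Aoah tumours, against 0.711 ± 0.00557 in Vector tumours, a gap within the spread of the Aoah libraries. Of the summed TPM of the 4 receptors, Fcgr4 made up 23.0% in B16F10 Aoah tumours, against 7.83% in B16F10 Vector tumours. Its share was 23.5 ± 5.94% in B16mhgp100 Aoah tumours, against 19.5 ± 0.944% in B16mhgp100 Vector tumours (SD, n = 4 each), so B16F10 Vector had the lowest share of the 4 groups. In B16mhgp100 the third Aoah library, lowest in Fcgr2b of its group, had the highest Fcgr4 over Fcgr2b, at 1.07.

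**Figure D3:**
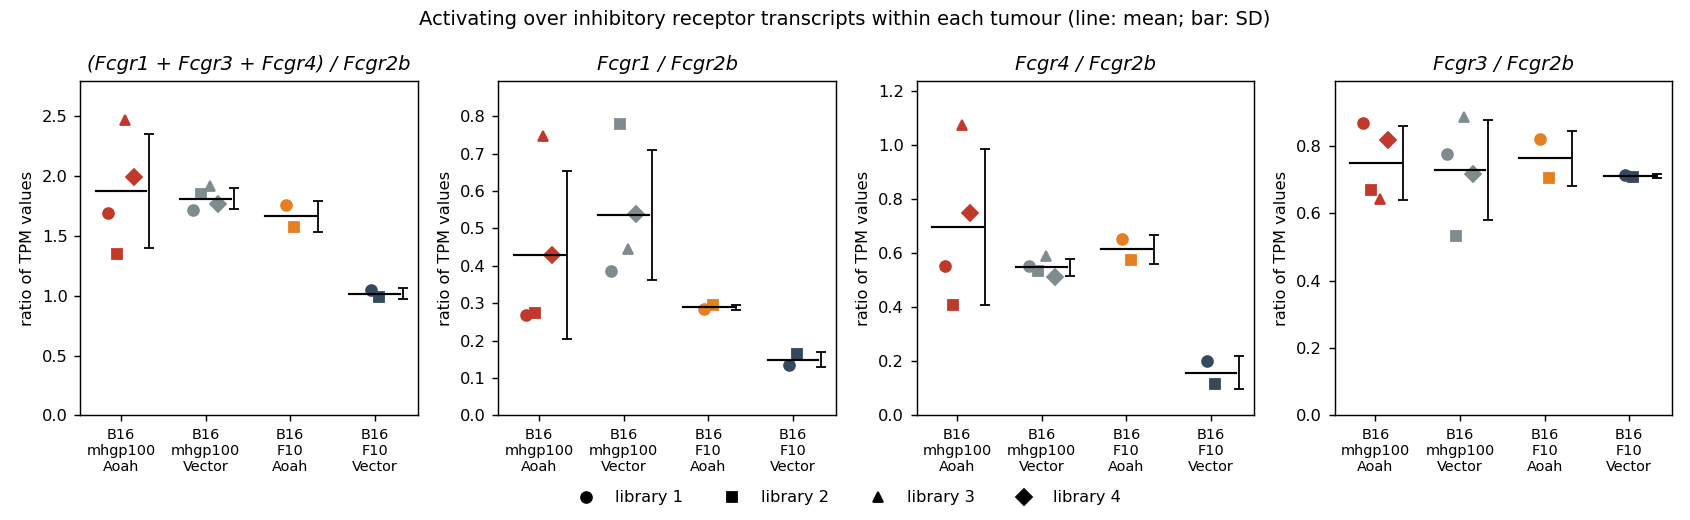
Ratios of TPM within each library (y axis) by group (x axis): the summed activating receptors over Fcgr2b, then Fcgr1, Fcgr4 and Fcgr3 each over Fcgr2b; lines are means and bars SD. The B16F10 Vector libraries are lowest for the sum and for Fcgr1 and Fcgr4, at 1.02, 0.149 and 0.159 on average, while for Fcgr3 over Fcgr2b the groups of each model overlap.

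Markers of the cells these receptors are known from were read in the labelled tissue, bulk tumour. The B16F10 tumours had summed macrophage and monocyte markers of 4772 to 4935 TPM with Aoah and of 3272 to 4946 TPM with the Vector, and the B16mhgp100 tumours of 2956 to 7442 TPM with Aoah and of 3303 to 4498 TPM with the Vector. Apoe, an apolipoprotein that other cells also make, carried most of these sums. Without it they were 1178 to 1237 TPM in B16F10 Aoah tumours, against 686 to 755 TPM in B16F10 Vector tumours. The overlap of the B16F10 sums thus came from Apoe. Without Apoe the sums were 295 to 3636 TPM in B16mhgp100 Aoah tumours, against 276 to 1610 TPM in B16mhgp100 Vector tumours. In B16F10, C1qa, C1qb and C1qc together averaged 744 TPM in Aoah tumours, against 369 TPM in Vector tumours. Not every marker separated the groups: Csf1r was at 22.11 and 30.94 TPM in Aoah tumours, against 29.51 and 15.98 TPM in Vector tumours. Mrc1 was lower with Aoah, at 5.96 and 7.86 TPM, against 18.86 and 11.35 TPM with the Vector. Of the 18 markers, 15 had a limma difference above 0 in B16F10. NK markers summed to 8.14 to 11.8 TPM in B16F10 Aoah tumours, against 1.27 to 3.33 TPM in B16F10 Vector tumours, where Klra8 and Klra4 were listed at 0. Dendritic cell markers summed to 6.64 to 26.8 TPM and neutrophil markers to 2.67 to 48.1 TPM over the libraries. Mast cell and basophil markers summed to at most 39.9 TPM and B and plasma cell markers to at most 6.95 TPM in any library.

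C1q, a complement component made by tissue macrophages, gave a further yardstick. Per 100 TPM of C1qa, C1qb and C1qc, Fcgr4 stood at 3.56 ± 0.209 in B16F10 Aoah tumours, against 1.51 ± 0.880 in Vector tumours, and Fcgr3 stood at 4.42 ± 0.180 in Aoah tumours, against 6.48 ± 1.53 in Vector tumours (SD, n = 2 each). Fcgr1 stood at 1.69 ± 0.292 in Aoah tumours, against 1.34 ± 0.132 in Vector tumours, a smaller gap than in TPM. Fcgrt, whose TPM was close in both groups, stood at 5.61 ± 0.495 in Aoah tumours, against 11.1 ± 1.15 in Vector tumours. Fcgr2b stood at 5.84 ± 0.864 in Aoah tumours, against 9.11 ± 2.08 in Vector tumours. Fcer1g stood at 8.65 ± 0.566 in Aoah tumours, against 11.1 ± 1.11 in Vector tumours. Relative to Csf1r, the receptor for macrophage colony-stimulating factor, Fcgr4 stood at 1.03 ± 0.295 in Aoah tumours, against 0.236 ± 0.0536 in Vector tumours, and Fcgr1 at 0.480 ± 0.0839 in Aoah tumours, against 0.232 ± 0.0670 in Vector tumours. Fcgrt over Csf1r was 1.62 ± 0.416 in Aoah tumours, against 1.99 ± 0.949 in Vector tumours, with overlap. Both denominators thus left Fcgr4 higher in B16F10 Aoah tumours, while Fcgr3, Fcgr2b and Fcer1g were lower relative to C1q and not relative to Csf1r.

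The cell markers themselves moved between the B16F10 groups. In the authors' deposited table, 5 of 18 macrophage and monocyte markers rose and 2 fell with Aoah, with a median of 0.36, where 4.65% of all genes were called higher and 8.53% in either direction. Marco, a scavenger receptor, rose by 3.05, Ly6c2, a marker of inflammatory monocytes, by 2.39, and C1qa by 1.13, whereas Cd163, a haemoglobin scavenger receptor, fell by 2.32 on the log2 scale of the authors' deposited table. limma called none of the 18, with a median of 0.31. In B16mhgp100 limma and the authors' deposited table called none, and the limma median was 0.59, with 16 of 18 above 0, or 0.59 without the library that stood apart. The B16mhgp100 median in the authors' deposited table was 1.11, with 17 of 18 above 0, against 0.05 over all genes. T cell markers rose for 8 of 9 in the authors' deposited table for B16F10, and limma called Cd8a and Cd8b1. Endothelial markers fell for 6 of 8, with a median of -1.33. In the authors' deposited table Itgax was the 1 rise of 7 dendritic markers and Retnlg the 1 fall of 2 neutrophil markers tested, and none of 3 NK and 2 mast cell markers passed. B and plasma cell markers were too low to be tested. The melanocyte genes Pmel and Trpm1 rose, 2 of 8, as did the keratinocyte gene Krt10, 1 of 5, and the muscle genes Mylpf and Myl1 fell, 2 of 8, in the authors' deposited table, and limma called Krt10 as well. The part of these cell types in the receptor differences was not tested.

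Genes known to be induced by interferon-gamma, the cytokine under which Fcgr1 is a textbook target, were mostly higher in B16F10 Aoah tumours. In the authors' deposited table, 14 of 15 rose, where 4.65% of all genes did, and none fell, with a median of 2.46, against -0.03 over all genes there. Psmb9, an immunoproteasome subunit, was at 383 and 397 TPM in Aoah tumours, against 69.6 and 31.6 TPM in Vector tumours. Irf8, a myeloid transcription factor, was at 123 and 139 TPM in Aoah tumours, against 24.5 and 9.06 TPM in Vector tumours. Nos2, the inducible nitric oxide synthase, was at 14.3 and 19.1 TPM in Aoah tumours, against 3.04 and 1.32 TPM in Vector tumours. In each, both Aoah libraries exceeded both Vector libraries. Socs1, a feedback inhibitor of cytokine signalling, was at 13.1 and 14.1 TPM in Aoah tumours, against 2.69 and 2.05 TPM in Vector tumours. Cxcl10, a chemokine, did not pass and was at 80.6 and 79.4 TPM in Aoah tumours, against 93.4 and 74.1 TPM in Vector tumours. limma gave a median of 2.19 and called none after adjustment, with 14 of 15 at an unadjusted p under 0.05. In B16mhgp100 none passed in either, and the limma median was 0.16.

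Receptors other than the Fc gamma receptors that use the gamma chain were also higher in B16F10 Aoah tumours for 3 of 7 in the authors' deposited table, with 4.65% of all genes called higher there. Il3ra, the interleukin-3 receptor alpha chain, which in basophils works with the gamma chain, was at 149 and 132 TPM in Aoah tumours, against 43.7 and 53.1 TPM in Vector tumours. Clec4n, encoding the fungal lectin receptor Dectin-2, was at 32.5 and 26.7 TPM in Aoah tumours, against 6.33 and 8.69 TPM in Vector tumours. Clec4e, encoding Mincle, was at 3.88 and 5.15 TPM in Aoah tumours, against 0.62 and 0.58 TPM in Vector tumours. The rises were 1.51, 1.96 and 2.89 on the log2 scale in the authors' deposited table. Clec4d did not pass, at 1.07 in the authors' deposited table. The list as first drawn also held Clec4a2, an inhibitory lectin receptor that does not belong to it, at -0.23 in the authors' deposited table; it was left out of the count above after its value was seen.

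Of 23 adaptors, kinases and effectors that act after the ITAM, 4 rose and none fell in B16F10 in the authors' deposited table, which called 4.65% of all genes higher, with a list median of 0.32. Among them were Pik3ap1, an adaptor for PI3 kinase, by 1.62, Vav1, an exchange factor for Rac, by 1.41, and Lcp2, the adaptor SLP-76, by 1.28. Syk, the kinase recruited by the ITAM, was at 12.6 and 11.8 TPM in Aoah tumours, against 8.53 and 6.71 TPM in Vector tumours, and did not pass (0.67, adjusted p = 0.0855 in the authors' deposited table). Lyn, Plcg2 and Btk lay at 0.14, 0.31 and -0.12 there and did not pass. T cells also use Vav1 and Lcp2, and Il3ra and Pik3ap1 are not confined to cells with Fc receptors.

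Of 14 genes of phagocytosis and the oxidative burst, 7 rose and 1 fell in the authors' deposited table for B16F10, with a median of 0.77, where 8.53% of all genes were called. Rac2, a GTPase of the NADPH oxidase, was at 33.9 and 40.4 TPM in Aoah tumours, against 9.07 and 5.99 TPM in Vector tumours. Ncf4, an oxidase subunit, was at 13.3 and 14.5 TPM in Aoah tumours, against 5.18 and 3.45 TPM in Vector tumours. Cyba, the small membrane subunit, was at 752 and 647 TPM in Aoah tumours, against 164 and 324 TPM in Vector tumours. Cybb, the catalytic subunit, rose by 1.33 and Coro1a, an actin-binding protein of leukocytes, by 1.87, with Was at 1.54 and Nckap1l at 0.81 in the authors' deposited table. Arpc1b, a subunit of the actin-nucleating Arp2/3 complex, fell by 1.27 there. Ncf1, a further oxidase subunit, did not pass, at 0.40 there.

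Inhibitory genes were examined beside the activating ones. Of 18 inhibitory receptors and phosphatases, 6 rose and none fell in B16F10 in the authors' deposited table, with a median of 0.99, again beside 4.65% of all genes. Ptpn6, encoding the phosphatase SHP-1, was at 117 and 176 TPM in Aoah tumours, against 71.6 and 56.2 TPM in Vector tumours. Inpp5d, encoding SHIP1, the phosphatase through which Fcgr2b acts, was at 15.6 and 16.9 TPM in Aoah tumours, against 7.26 and 7.31 TPM in Vector tumours. Siglece, Cd300lf, Cd22 and Cd300a rose by 3.20, 2.43, 2.11 and 1.70 in the authors' deposited table. limma called none of the 14 phagocytosis genes, the 23 effectors, the gamma-chain receptors or these 18 after adjustment.

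Among the partner and trafficking genes of FcRn, B2m, the light chain that FcRn shares with MHC class I, was the only one of 7 called in B16F10 by the authors' deposited table. It was at 2897 and 3143 TPM in Aoah tumours, against 1735 and 1278 TPM in Vector tumours, and rose by 1.00 in the authors' deposited table (adjusted p = 2.59e-05), but did not pass limma's test (adjusted p = 0.104). Rab11a, Rab4a and Snx4, which sort endosomes, lay at -0.03, 0.15 and -0.32 there. Of other Fc receptors, Trim21, a cytosolic antibody receptor that interferon induces, was at 25.5 and 24.6 TPM in Aoah tumours, against 10.9 and 4.05 TPM in Vector tumours, and rose by 1.78. Fcrls, a scavenger-type Fc receptor-like gene, was at 1.17 and 0.80 TPM in Aoah tumours, against 7.49 and 6.44 TPM in Vector tumours, and fell by 2.83 in the authors' deposited table. limma called neither, with adjusted p of 0.145 and 0.0603. Of 3 antibody chain genes tested there, Igha fell and Igkc and Ighm did not pass. Igha was at 0.10 and 0.22 TPM in Aoah tumours, against 8.72 and 0.12 TPM in Vector tumours, so its fall rested on Vector library 1; these chains come from the tumours' own B lineage cells, and the therapeutic antibodies leave no transcript.

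In B16mhgp100 no gene of any of these lists passed limma's test or the authors' deposited table. The limma medians there were 0.33 for the gamma-chain receptors without Clec4a2 (0.44 with it), 0.09 for the effectors after the ITAM, 0.24 for phagocytosis and the oxidative burst, 0.18 for the inhibitory list and -0.12 for FcRn partners. They were 0.72 for the 6 Fc receptor genes, 0.59 for macrophage and monocyte markers (0.69 without Apoe) and -0.20 over all genes. In the authors' deposited table the medians were 0.56 for the gamma-chain receptors without Clec4a2, 0.33 for the effectors, 0.48 for phagocytosis and 0.39 for the inhibitory list. There the 6 Fc receptor genes had a median of 1.01 and the macrophage and monocyte markers 1.11. The FcRn partner median turned to 0.08 under median-of-ratios scaling and was 0.11 in the authors' deposited table.

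**Figure D4:**
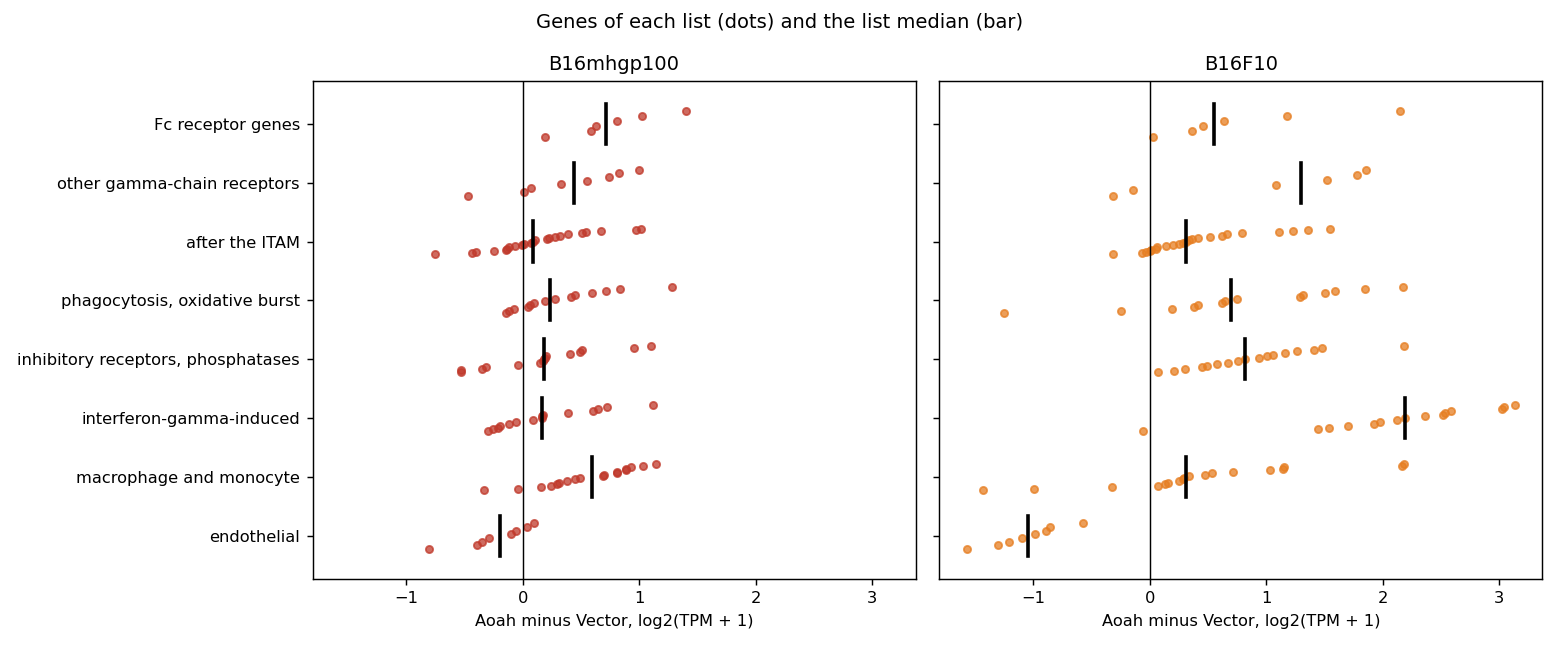
Difference Aoah minus Vector in log2(TPM + 1) (x axis) of each tested gene (dots) of 8 lists (y axis; the gamma-chain receptors here include Clec4a2) and the list's median (bar), in B16mhgp100 and B16F10. In B16F10 the interferon-gamma-induced genes reach a median of 2.19 and the endothelial markers -1.04, and in B16mhgp100 the medians lie between -0.20 and 0.72.

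Among themselves the 6 genes followed each other unequally. Likeness was measured as the root mean square difference between log2(TPM + 1) profiles, each centred over the 12 libraries, so a smaller value is a closer match. Fcgr3 and Fcgr2b were the closest pair at 0.17, and the part of the sequence they share in this was not tested. Fcgr1 and Fcgr4 were next at 0.49, and Fcgr4 and Fcgrt were the farthest apart at 1.04.

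Against 10110 other genes averaging at least 5 TPM, Fcgr2b was most like Cd53, a leukocyte tetraspanin, at 0.21, Vsir, the checkpoint protein VISTA, at 0.26 and P2ry6, a nucleotide receptor, at 0.28. Fcgr3 was most like Cd53 at 0.26, Ctss, the lysosomal protease cathepsin S, at 0.28 and Vsir at 0.31. Cd53 and Vsir were thus among the 3 for both of these receptors. Fcgr1 was most like Slfn1 at 0.29, Fes, a tyrosine kinase, at 0.35 and Il15ra, the interleukin-15 receptor alpha chain, at 0.35. Fcgr4 was most like Fgl2 at 0.32, Cfb, complement factor B, at 0.44 and Pld4 at 0.45. None of these 6 was among the 3 genes most like Fcgr2b or Fcgr3 in this ranking. Fcer1g was most like Thy1, a surface protein of T cells and fibroblasts, at 0.22, Tyrobp, the ITAM adaptor DAP12, at 0.23 and Nnmt, a methyltransferase, at 0.24. Fcgrt was most like Pltp, a phospholipid transfer protein, at 0.38, and the matrix-associated genes Fstl1 at 0.38 and Cthrc1 at 0.40. Without the library that stood apart, Fcgr2b and Fcgr3 still had Cd53 among their 3 and Fcgr4 still had Fgl2, while the 3 genes most like Fcer1g became the leukocyte genes Cyth4, Clec4a1 and Plek at 0.21 each. With that library left out and each group centred on its own mean, Cfb was the gene closest to Fcgr2b, at 0.13. The values describe these 12 libraries, which share their tissue and tumour line.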

How the data were processed

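RNA of 12 bulk tumours was described for 6 Fc receptor genes, with groups taken from the sample titles. Per the labels' protocols, polyA RNA with ERCC spike-in was made into NEBNext Ultra II libraries and read in pairs on a NovaSeq instrument. Per the submitters' processing notes, RSEM and DESeq2 were used with mm39; the sources used here give no version or annotation for them. The authors deposited expression as log2 values, which gave TPM on removing a pseudocount of 1 and summed to between 992185 and 996590 per library. TPM keeps no read depth, so no counting interval is given, and genes that share sequence are less certain. The authors' deposited tables for each model hold the mean normalised count as a signal value, a log2 fold change with its standard error, a test score, and a p-value with its adjusted p-value. Their sign matched Aoah minus Vector in the TPM for 100% of 1699 B16F10 and 99.3% of 1073 B16mhgp100 genes past 1 on the log2 scale. Identifiers were named through the reference's gene name table, for 25784 of 26878 in B16F10 and 29916 of 31267 in B16mhgp100.

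log2(TPM + 1) was tested with limma 3.58.1 in R 4.3.3 with an intensity trend, 2-sided, on genes that reached 1 TPM in a number of libraries equal to the smallest group or more, with Benjamini-Hochberg adjustment over all of them and a threshold of 0.05. Each model was fitted alone, and comparisons across models used all 12 libraries with 4 group means. The procedure was tested on simulated data. The pseudocount, filter, scaling, replicate block, pooled fit and each library were varied. Replicate numbers did not pair libraries. The 20 gene lists, 1 of them the members, hold 223 entries of which 5 were not found, and were chosen with earlier results of these data known. Named genes are the members, the 3 genes of at least 5 TPM most like each, Aoah, and in each list up to 4 with the smallest limma p in B16F10 plus those past the threshold of limma or of the authors' deposited table, up to 8. Genes named outside this rule were chosen after their values were seen: Csf1r, Adgre1, Cxcl10, Clec4a2, Syk, Lyn, Plcg2, Btk, Ncf1, Klra4, Klra8, Apoe and Rab11a. Leaving Apoe and Clec4a2 out of their lists was also chosen after seeing the data. Promoters matched all 6 symbols in RefSeq (GRCm38.p6), and transcript lengths came from GENCODE. Protein sequences and the immune repertoire table were not used here, and single values of some list genes are not reported here.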

Additional observations from a re-analysis of the deposited data

Results flagged for a closer look

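Dixon's ratio, the gap of the extreme library to its nearest neighbour over the group's range, was computed for 20 groups of 4 libraries, where chance alone exceeds the 95% critical value for 4 samples in about 1 of 20. Fcgr1 in B16mhgp100 Aoah tumours gave 0.837, since Aoah library 2 had 44.6 TPM and the others 11.48 to 16.9 TPM. Fcgrt in B16mhgp100 Vector tumours gave 0.920, since Vector library 1 had 45.4 TPM and the others 15.8 to 18.2 TPM. The cause of either value was not tested.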

How the results depend on the processing

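TPM keeps no depth, each B16F10 group holds 2 libraries, and B16mhgp100 Aoah library 4 and B16F10 Vector library 2 stand apart. Of 420 alternative limma values of the 6 genes, 17 turned sign, each on leaving out 1 library. Calls of the 6 genes are not counted over these settings. Each B16F10 fit without a library holds 1 library in a group, whose spread cannot be estimated. Counts of genes past the threshold moved as well, and the cause was not tested. With a pseudocount of 0.1 limma called 1 gene in B16mhgp100 and 32 in B16F10, against 50 in B16F10 with a pseudocount of 1. With no filter on low values it called 0 in B16F10, where 3335 had an unadjusted p under 0.05 and the authors' deposited table called 1222, and 46 for the difference between the models, against 5. Median-of-ratios scaling gave 125 in B16F10, 10 for the difference between the models, 1414 for the models in Aoah tumours (612 unscaled) and 504 in Vector tumours (312 unscaled).

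Same-numbered libraries did not deviate together, with correlations of -0.23 to 0.06 in B16mhgp100 and -0.09 in B16F10. The replicate block gave 0 calls in B16mhgp100, 765 in B16F10, 2 for the difference, 21 for the models in Aoah tumours and 41 in Vector tumours. With it Fcgr4 passed limma's test in B16F10 (adjusted p = 0.000206), where 765 of 14533 genes did. With 2 libraries a group, a block leaves little from which to estimate spread, so this pass carries little weight.

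Leaving out each library gave 0 to 1 calls in B16mhgp100, 105 to 2394 in B16F10 (highest without Vector library 2), 2 to 45 for the difference, 36 to 3412 for the models in Aoah and 55 to 2089 in Vector tumours, the last 3 highest without B16mhgp100 Aoah library 4. The differences that turned sign ranged from -0.22 to 0.41 for Fcgr1 in B16mhgp100 and from -0.034 to 0.090 for Fcgrt in B16F10. For the difference between the models they ranged from -0.45 to 0.75 for Fcgr3, -0.36 to 0.74 for Fcgr2b and -0.052 to 0.87 for Fcer1g. Between models in Aoah tumours they ranged from -0.14 to 0.51 for Fcgr4, -0.42 to 0.69 for Fcgr3 and -0.45 to 0.66 for Fcgr2b, and in Vector tumours from -0.42 to 0.56 for Fcgr3 and -0.41 to 0.42 for Fcgr2b.

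The B16F10 gap in the activating to inhibitory ratio, Aoah minus Vector, was 0.647, with 0.555 to 0.739 on leaving out a library and 0.455 for Fcgr4 alone over Fcgr2b. With Csf1r in place of C1q, the log2 difference of every Fc receptor gene in a model moved by the same amount. The genes are therefore not separate checks of the denominator, and no count of them is given.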

Other observations

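With each group centred on its own mean, which removes differences between the groups, the genes most like Fcgr4 over the 12 libraries were Srgn, the proteoglycan core serglycin, at 0.12, Fgl2 at 0.14 and Ctss at 0.20 (root mean square log2 difference). Fgl2 was the gene shared with the ranking over all libraries. For Fcgr2b and Fcgr3 the first 2 were Pirb, an inhibitory receptor, at 0.15 and 0.22 and Ms4a6d at 0.16 and 0.24. For Fcgr1 none of the 3 was shared, and Glipr2 was closest at 0.16. For Fcgrt they were Fstl1 at 0.18, Fcrls at 0.23 and Selenop, the selenium carrier, at 0.25. These genes were listed by likeness and carry no test.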
